A study of Mus musculus with 28 samples.

Results

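The transcripts described here are the RefSeq non-coding RNAs of the array, whose accessions begin with NR, that were detected along all 3 planes of sectioning of the mouse brain. They were chosen on signal: a transcript entered when its feature was well above background on at least 1 array of the coronal series, 1 of the horizontal series and 1 of the sagittal series. Of the 1216 such features on the array 590 met the rule, for 522 names, beside 32426 of all 55681 features. The brains came from 3 male C57BL/6J mice aged 3 weeks, with no treatment or allele that distinguished them, and each was cut along its own plane. In this method, Transcriptome Tomography, frozen tissue is sliced from end to end and runs of neighbouring slices are collected into fractions. Mouse 1 gave 12 coronal fractions, mouse 2 gave 6 horizontal fractions and mouse 3 gave 10 sagittal fractions. Each fraction was read on 1 array, so no position has a replicate, and plane and mouse cannot be told apart. Positions are given as fraction numbers, and the label of coronal fraction 12 also names a following fraction. In whole fractions, a change in the number of cells of a type and a change in RNA per cell cannot be told apart either.

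Non-coding RNAs work as RNA and do not encode a protein. Long non-coding RNAs are transcribed like messengers and are often spliced, and many start beside or opposite a gene for a transcription factor. Small structural RNAs build the machines that splice pre-mRNA, modify ribosomal RNA or process other RNAs, and host transcripts carry small nucleolar RNAs or microRNAs in their introns or exons. Transcribed pseudogenes are copies of coding genes, and a probe for such a copy may also read the messenger of the parent gene. In the brain, long non-coding RNAs are known for expression that is often limited to a few regions.

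Per the reference table, the 590 members were 387 long non-coding RNAs, 121 transcribed pseudogenes, 14 with a coding gene under that accession, 14 other RNAs (small nuclear, small nucleolar, ribosomal, antisense, telomerase and RNase MRP) and 54 known here by accession only. Levels are log2 processed signals relative to the 75th percentile of each array, so 0 is that percentile, and they say nothing of one transcript against another, since each probe has its own brightness. Of the members 340 were well above background on all 28 arrays, and 92 on fewer than 14. At the edge of the rule, 55 members were well above background on 1 array of their scarcest plane, with a median of mean levels of -4.87, and 150 transcripts just outside it reached 2 planes, with a median of -5.41. The arrays differed in strength, with 24822 to 34240 features well above background and no saturated spot. The 75th percentile that sets the scale was lowest in sagittal fraction 1, at a signal of 135, followed by 176 in sagittal fraction 9. It was 233 in horizontal fraction 6 and 251 in coronal fraction 10, the lowest of their planes, and 574 in coronal fraction 4, the highest of all. Many peaks described below lie on arrays where it was low, and its part in them was not tested. Regional coding genes gave the orientation: Hoxb5 of the hindbrain had its highest coronal level in fraction 1, Pcp2 of the cerebellum in fraction 2, Oxt of the hypothalamus in fraction 7, Ppp1r1b of the striatum in fraction 8, Tbr1 of the cortex in fraction 9 and Omp of the olfactory bulb in fraction 12, while Pmch of the hypothalamus was highest in horizontal fraction 6. Of the midbrain markers, Slc6a3 and Foxa1 were highest in coronal fraction 5, En1 was well above background on 0 arrays, and Th, which olfactory bulb neurons also express, was highest in coronal fraction 12.

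To show what lies at the start of regional RNAs, the 300 bases around the annotated start (250 before and 50 after) are printed for 3 of them and for 1 with an even feature, from RefSeq on GRCm38.p6, 5′ to 3′ on the strand of the transcript. Capitals mark every CG dinucleotide, which reads the same on both strands and is dense in CpG islands.

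AI606473, chr3:154330571-154330870, forward strand: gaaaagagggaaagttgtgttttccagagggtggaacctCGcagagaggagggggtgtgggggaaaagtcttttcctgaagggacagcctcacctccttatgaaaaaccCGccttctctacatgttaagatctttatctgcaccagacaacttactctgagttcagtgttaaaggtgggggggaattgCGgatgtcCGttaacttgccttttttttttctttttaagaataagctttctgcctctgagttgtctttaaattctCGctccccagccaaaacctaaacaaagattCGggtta

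Six3os1, chr17:85618347-85618646, reverse strand: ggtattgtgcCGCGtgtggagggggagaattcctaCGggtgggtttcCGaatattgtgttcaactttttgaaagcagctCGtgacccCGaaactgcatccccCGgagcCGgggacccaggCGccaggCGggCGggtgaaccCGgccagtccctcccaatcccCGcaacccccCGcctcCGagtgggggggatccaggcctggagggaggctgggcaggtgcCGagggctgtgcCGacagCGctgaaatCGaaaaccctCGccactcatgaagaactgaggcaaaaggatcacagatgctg

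Gm2694, chr8:87472866-87473165, forward strand: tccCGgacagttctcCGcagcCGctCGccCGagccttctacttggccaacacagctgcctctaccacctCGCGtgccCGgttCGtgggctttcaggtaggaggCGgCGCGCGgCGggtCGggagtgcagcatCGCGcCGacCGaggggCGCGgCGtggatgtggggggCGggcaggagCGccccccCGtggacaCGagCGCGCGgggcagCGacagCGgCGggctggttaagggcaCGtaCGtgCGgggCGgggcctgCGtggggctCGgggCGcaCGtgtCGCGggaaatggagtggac

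1500011B03Rik, even in 1 of its 2 features, chr5:114813927-114814226, reverse strand: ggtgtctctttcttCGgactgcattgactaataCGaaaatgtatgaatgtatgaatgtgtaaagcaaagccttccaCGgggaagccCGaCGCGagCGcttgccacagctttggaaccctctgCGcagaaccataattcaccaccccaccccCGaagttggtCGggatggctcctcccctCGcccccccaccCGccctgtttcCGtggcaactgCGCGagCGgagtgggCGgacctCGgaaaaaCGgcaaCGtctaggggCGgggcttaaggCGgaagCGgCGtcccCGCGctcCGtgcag

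The windows hold 6, 20, 42 and 27 CG in this order, against a median of 7 over the 27025 genes with a promoter in the table. A promoter was in the table for 299 of the 522 member names, with a median of 13 CG. It was 11 for the 185 names that passed a position test described below, 19 for the 113 that passed none and 27 for the 11 even ones. The letters TATAAA, sought on both strands, occur in none of the 4 printed windows, in 12.4% of the members' windows and in 14.2% of all. The windows of AI606473 and of Lhx8, which start 261 bases apart in opposite directions, share 240 bases, and those of Cerox1 and Sox8 share 224. These are descriptions of letters in a window.

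The question put to each series was which RNAs change with position. Fitted with a smooth curve of the fraction number (limma, adjusted over all 32364 features tested), 214 of 589 members passed the adjusted p of 0.05 in the coronal series, 121 in the horizontal series and 130 in the sagittal series, and 1 member that lost a spot, Mirg, was not tested. Over all features the percent called was 33.7 in the coronal, 15.8 in the horizontal and 14.7 in the sagittal series. Members came to 36.3%, 20.5% and 22.1%, and RefSeq coding features to 37.0%, 13.6% and 12.0%. The coronal share of the members is thus near the background. The horizontal and sagittal shares are above it on this scale, which was not tested and turns with the scaling: with array medians 46.9% of members and 59.8% of all features passed in the horizontal series, and 0.679% and 1.04% (4 members) in the sagittal one. With normexp background 328 members (55.7%) passed in the sagittal series, against 44.2% of all features. In at least 1 series 336 members (57.0%) passed, where the percent over all features was 50.1. In exactly 2 series it was 91 members (15.4%, against 10.8% of all features), and in all 3 it was 19 (3.23%, against 1.67%). The median fitted range of the members that passed was 1.64 log2 in the coronal, 2.35 in the horizontal and 2.05 in the sagittal series.

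**Figure D1:**
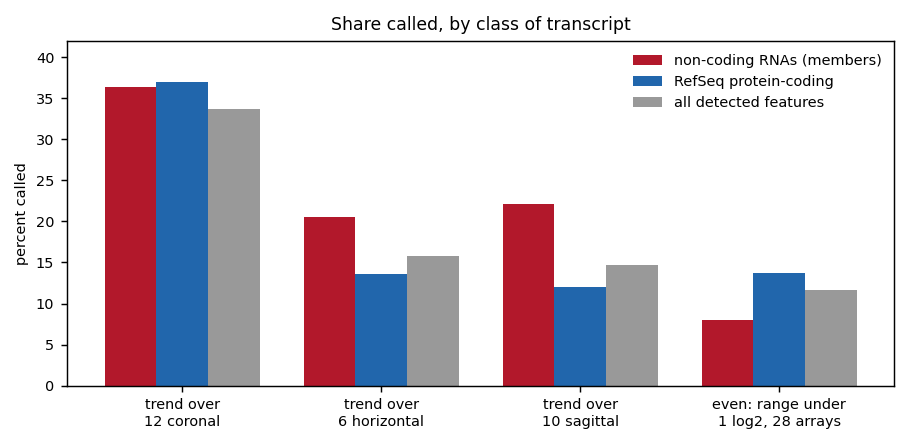
Percent of features called in each position test, and percent even over 28 arrays (vertical axis), for the non-coding members (red), RefSeq coding features (blue) and all detected features (grey). Members stand at 36.3%, 20.5% and 22.1% in the 3 trend tests and at 7.94% for evenness.

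Of the 214 coronal members that passed 72 (33.6%) had the top of their curve in fraction 12, 45 (21.0%) in fraction 1, 35 (16.4%) in fraction 8 and 24 (11.2%) in fraction 9. Over all features called in that series these shares were 28.0%, 27.5%, 16.2% and 5.44%. Of the 121 horizontal ones 77 (63.6%) were highest in fraction 6, against 50.4% of all features called, and 91 of the 130 sagittal ones (70.0%) in fraction 1, against 59.8%. The ends thus held most peaks of members and of all features alike. The calls also lean on slides and single arrays. With the slide as an added term 8 coronal members passed (1.36%, against 0.745% of all features), and 97 (16.5%, against 12.9%) passed within the 8 coronal fractions (3 to 10) of a single slide. No horizontal member, and no feature at all, passed without fraction 3 or without fraction 4. Without fraction 1 it was 48 members (8.15%, against 6.84% of all features), and without fraction 6 it was 29 (4.92%, against 4.13%). No sagittal member, and no feature, passed without fraction 1 or within the 6 fractions of a single slide. Without sagittal fractions 2, 3, 4, 5, 6 and 7 in turn 80, 70, 59, 77, 67 and 86 members passed, at most 14.6% of them, with 6.24% to 9.27% of all features. Without fractions 9 and 10 it was 261 (44.3%, against 38.8% of all features) and 316 (53.7%, against 47.1%). When the left and right fractions equally far from the midline were paired (percent called 0 over all features), 0 members passed in limma at the adjusted p of 0.05 and 140 (23.8%) had an unadjusted p under 0.05, against 16.7% of all features.

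RNAs that lie beside or opposite genes for developmental transcription factors, listed with Tunar, an RNA of neural differentiation, differed in where along the brain they were high. Of the 12 members of this list (of 21 features on the array) 11 passed in the coronal series, 5 in the horizontal and 4 in the sagittal, where 33.7, 15.8 and 14.7 percent of all features passed. The list was put together with earlier results of these data known. Only Pantr1 of the list was well above background on all 28 arrays, so most of these profiles run down into the background, and a member detected through the region where it is high had to differ.

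Dlx6os1 (Evf2), transcribed across the Dlx5 and Dlx6 locus of GABAergic neurons, passed in the coronal series (adjusted p 0.000255). Its coronal levels were -6.00, -6.40 and -6.54 in fractions 1 to 3, none of them well above background, and 1.18 and 1.63 in fractions 11 and 12. Fraction 12 was at least 76.0-fold above fraction 3. Its lowest, median and highest levels were -1.94, -1.39 and -0.44 in the horizontal and -2.36, -1.59 and -0.55 in the sagittal fractions, and neither series passed. So this RNA separated the front of the brain from the hindbrain and cerebellum and varied far less from top to bottom or side to side. Dlx1as, opposite Dlx1, was likewise highest at the front (level -2.15 in coronal fraction 11) and was well above background in 2 coronal fractions.

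Six3os1, opposite the forebrain gene Six3, passed in all 3 series. Its coronal levels rose from -6.29 and -6.69 in fractions 1 and 2 to -0.65, -0.62 and -0.92 in fractions 7 to 9, and were -6.70 in fraction 12. The adjusted p was 0.000460, and it stayed under 0.05 with the slide term and within a slide (0.0267 and 0.0281). In the horizontal fractions it rose from -3.34 in fraction 1 to -0.56 in fraction 6, and in the sagittal ones from -5.13 in fraction 1 to -0.97 in fraction 4. These calls were less firm than the coronal one. The horizontal call was lost in 4 of 13 alternative settings. The sagittal call was lost in 5 of 18, with normexp background (adjusted p 0.189) and within a slide (0.721) among them. Its high coronal fractions are therefore those where the striatum and hypothalamus markers named above peaked. It was low at 1 lateral edge, in sagittal fraction 1, and well above background in sagittal fractions 9 and 10 at the other.

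AI606473, beside Lhx8 of basal forebrain cholinergic neurons, had a like but narrower coronal peak. It was at -2.05, -0.14 and -0.49 in fractions 7 to 9, the 3 coronal fractions where it was well above background, against -6.82 in fraction 5. Its adjusted p was 0.000444 in the coronal, 0.0806 in the horizontal and 0.0143 in the sagittal series. Its coronal call was also kept with the slide term (0.0256) and within a slide (0.00844). Its sagittal call was lost in 4 of 18 alternative settings, with normexp background (0.306) and within a slide (0.690) among them.

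Other members of the list had other places. Sox1ot, which overlaps the neural stem cell gene Sox1, was lowest at the back (coronal -3.97, -3.97 and -3.73 in fractions 1 to 3) and highest in fractions 11 and 12 (0.08 and 0.05), with an adjusted p of 0.000535. Pax6os1, opposite the eye and forebrain gene Pax6, had 2 high ends, with -2.10 and -2.34 in the cerebellar fractions 2 and 3, -4.90 in fraction 7 and -1.64 in fraction 12 (adjusted p 0.00721). Tunar ran the other way, from -1.86 and -1.80 in coronal fractions 1 and 2 to -6.25 in fraction 9. Pantr1, beside the neuronal gene Pou3f3, had coronal lowest, median and highest levels of 3.73, 5.40 and 6.88. The horizontal ones were 4.66, 5.56 and 6.73 and the sagittal ones 4.97, 5.93 and 7.23. Pantr1 passed in all 3 series, but lost its horizontal call in 6 of 13 alternative settings and its sagittal call in 3 of 19. Emx2os, Foxd2os and Zfhx2os also passed in the coronal series, with adjusted p of 0.00217, 0.0149 and 0.0189. Hoxa11os did not, with coronal lowest, median and highest levels of -3.92, -3.34 and -2.73 and an adjusted p of 0.208. With the slide term all coronal calls of the list but those of Six3os1 and AI606473 were lost (adjusted p 0.0641 to 0.437), and AI606473 lost its call with 1 degree of freedom fewer in the curve (0.106).

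**Figure D2:**
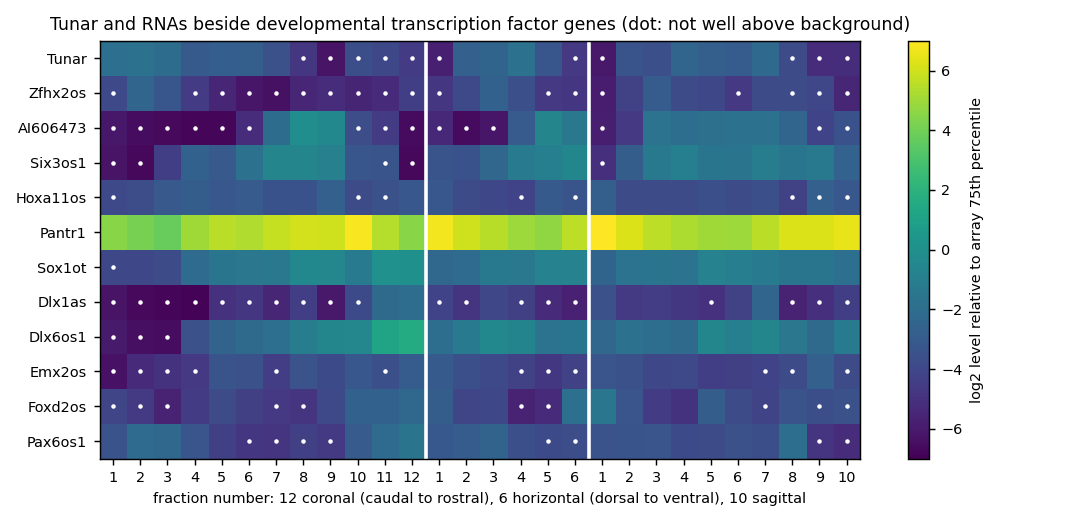
Log2 level relative to the 75th percentile of the array (colour) of Tunar and the RNAs beside developmental transcription factor genes (12 rows) over 28 fractions (columns), with white lines between planes and a dot where the feature was not well above background. Dlx6os1 runs from -6.54 in coronal fraction 3 to 1.63 in fraction 12, and Six3os1 peaks in coronal fractions 7 to 9.

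To see whether neighbours shared a profile, each member was set against the nearest coding gene in the reference order, over 475 pairs. Few pairs shared a profile. The median r over 28 arrays was 0.05 for members, with 12 pairs (2.53%) over 0.85, and 0.18 for 10280 pairs of neighbouring coding genes, with 134 (1.30%) over 0.85. The arrays are shared by all pairs and neighbouring fractions are alike, so these are descriptions. The pairs named next were picked because their r was over 0.85.

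Gm2694 lies 220 bases from Cbln1, the synaptic organiser secreted by cerebellar granule cells, with an r of 0.93 over 28 arrays (0.95, 0.98 and 0.93 within the coronal, horizontal and sagittal brains). It was at 4.00, 4.70 and 4.03 in coronal fractions 1 to 3 and at -0.76 in fraction 8, a 44.1-fold difference between fractions 2 and 8, and it was well above background on all 28 arrays. Its level was also higher in coronal fractions 11 and 12 (1.49 and 1.62) than in fractions 5 to 10, and Cbln1 was at 0.09, 1.99 and 2.76 in fractions 10, 11 and 12. The coding genes most like it were Gprc5c (r 0.98) and Rgl3 (r 0.96).

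Sfta3-ps, 2515 bases from Nkx2-1, the gene of ventral forebrain and hypothalamic progenitors, had an r of 0.96 with it (0.98, 0.97 and 0.92 within the 3 brains). Its peaks were coronal fraction 8 (-2.08) and horizontal fraction 6 (-1.91), and it was well above background on 11 of 28 arrays. Six3os1 and Six3 had an r of 0.96 (0.98, 0.95 and 0.98 within the 3 brains). A330009N23Rik overlaps Grasp, a scaffold of synaptic receptors, on the opposite strand, with an r of 0.93 (0.96, 0.82 and 0.92), and both had their lowest coronal level in fraction 3, -1.18 for the non-coding RNA and 0.42 for Grasp.

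The r of Dlx6os1 with Dlx6 was 0.90 over all arrays but 0.95, 0.07 and -0.02 within the 3 brains, so the likeness lay in the coronal series. Gm48957 and Basp1, the gene of a growth cone protein, had an r of 0.89, with 0.98, 0.81 and 0.57 within the 3 brains. For 9330179D12Rik and Ccnd2, a cyclin of dividing cells, it was 0.87, with 0.93, 0.37 and 0.74. Gm10536 with Marchf3 had an r of 0.91 (0.62, 0.97 and 0.90 within the 3 brains). Speer8-ps1 with Gm17019 had 0.87 (0.30, 0.98 and 0.93). C130026L21Rik and Mn1 lie 124.5 kb apart, with an r of 0.90 (0.94, 0.94 and 0.47 within the 3 brains). On the list beside transcription factor genes, Pax6os1 with Pax6 had 0.80, Foxd2os with Foxd2 0.81, Emx2os with Emx2 0.75 and Sox1ot with Sox1 0.36, while Zfhx2os with Zfhx2 had -0.38.

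**Figure D3:**
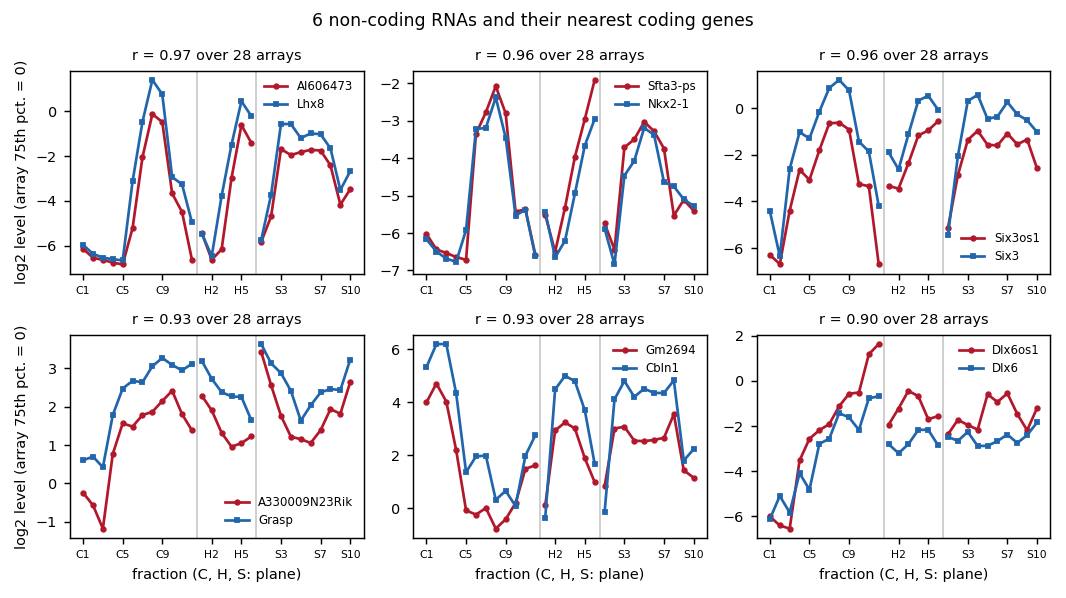
Log2 levels relative to the 75th percentile of the array (vertical axis) of 6 non-coding RNAs (red circles) and their nearest coding genes (blue squares) over the coronal (C), horizontal (H) and sagittal (S) fractions. The r over 28 arrays is 0.93 for Gm2694 with Cbln1 and 0.90 for Dlx6os1 with Dlx6.

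The largest coronal profiles among members well above background in every coronal fraction had their high fractions in different places. Besides Gm2694, those high at the back were NR_038041 and 2410018L13Rik. NR_038041 was at 0.99, 1.59 and 1.31 in fractions 1 to 3 and at -3.10 in fraction 6, and 2410018L13Rik went from -0.36 in fraction 2 to -3.61 in fraction 12. The adjusted p was 0.0130 and 0.00186.

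Others were low in the same caudal fractions. AA387883 was at -2.86, -2.97 and -4.03 in fractions 1 to 3 and at 1.78 in fraction 10, with a fitted range of 4.66 log2. NR_045177 was at -3.09 in fraction 2, at 0.26 and 0.94 in fractions 5 and 8 and back at -2.51 in fraction 12, and was most like Enc1 (r 0.98), an actin-binding protein of cortical neurons. A330009N23Rik ran from -1.18 in fraction 3 to 2.42 in fraction 10. Gm10638 was high at the front, between -0.41 and 0.21 in fractions 3 to 8 and at 2.40 and 2.91 in fractions 11 and 12. E330020D12Rik was low there instead, with 3.66 in fraction 8 and 0.60 in fraction 11, and it stood at 5.54 in horizontal fraction 6 and 6.18 in sagittal fraction 9. The adjusted p of the last 5 lay between 0.000418 and 0.00401. The slide term ended all 8 coronal calls of these genes (adjusted p 0.109 to 0.316), and within the single slide 7 of the 8 passed and Gm10638, whose high fractions lie on another slide, did not (0.105).

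The 19 members that passed in all 3 series included RNAs of several kinds. 9130024F11Rik was at -6.12, -5.87 and -6.64 in coronal fractions 1 to 3, at -0.47 in fraction 4, highest at 0.91 in fraction 8 and at -4.22 in fraction 12. From top to bottom it fell from 1.95 in horizontal fraction 1 to -3.24 in fraction 6. Its fraction 8 was at least 46.0-fold above fraction 3, and its adjusted p was 0.00306, 0.0169 and 0.0405 in the 3 series. Six3os1, Pantr1, Tunar, AA387883 and A330009N23Rik, described above, were also among them. Tunar lost its horizontal call in 6 of 12 alternative settings and its sagittal call in 10 of 18. 9830166K06Rik and Gm20754 were low in coronal fractions 1 to 3 (-6.59 and -6.05 in fraction 3) and higher in fraction 5 (-2.62 and -2.01). Cerox1, a cytoplasmic RNA that raises transcripts of mitochondrial complex I, went the other way, from 4.19 in coronal fraction 4 to 2.72 in fraction 12, and was lowest in horizontal fraction 1 (2.25) and sagittal fraction 1 (2.15). BC021767 followed a like course, from -0.87 in coronal fraction 2 to -3.60 in fraction 12. 9630013A20Rik, whose nearest coding gene is Pcdh17, was lowest in sagittal fraction 1 (-1.75). The others were 2310068J16Rik, 4921525O09Rik, 4933412O06Rik, 5033406O09Rik, A930001A20Rik, Gm11627, Gm48957 and Mir124-2hg, and 5 of these 8 were not well above background on all 28 arrays.

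Of the small structural RNAs, 5 of 6 had the highest of their 28 levels in sagittal fraction 1, and Terc had it in sagittal fraction 9. Of the 340 members well above background on all 28 arrays 138 (40.6%) had their highest level in sagittal fraction 1 and 43 (12.6%) in fraction 9, so these were common places, and over all 21524 such features the shares were 26.8% and 6.93%. Of the 6 members on the list of RNA polymerase III and small structural RNAs 5 passed in some series (50.1 percent over all features), 1 in the coronal (33.7 percent), 1 in the horizontal (15.8 percent) and 3 in the sagittal one (14.7 percent). Rmrp, the RNA of RNase MRP, had sagittal levels of 4.83 in fraction 1, 2.42 in fraction 2, 0.75 in fraction 4 and 3.91 in fraction 9 (adjusted p 0.0232). Rnu3b1, the U3 RNA of ribosomal RNA processing, went from 4.98 in fraction 1 to 1.49 in fraction 4 (adjusted p 0.00953), and Rnu12, the U12 RNA of the minor spliceosome, from 6.44 to 3.08 (adjusted p 0.0188). The small nucleolar RNAs Snora74a and Snora47 were at 3.77 and 3.93 in sagittal fraction 1 and at -1.02 and -0.55 in fraction 4.

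Rmrp and Rnu3b1 were also higher in coronal fractions 10 and 11 than in fraction 9, without passing the coronal test. Rmrp was at 1.19, 3.56 and 3.61 in coronal fractions 9, 10 and 11 (adjusted p 0.0818), and Rnu3b1 at 1.85, 3.97 and 3.63 (adjusted p 0.249). Messengers of ribosomal proteins moved in the same way: the median of 158 features for 77 such genes, each taken from its own mean, was 1.52 log2 in sagittal fraction 1, 0.81 and 0.73 in coronal fractions 10 and 11 and 0.69 in horizontal fraction 6, and -0.76 in coronal fraction 3. Over 28 arrays the r with that median was 0.93 for Rmrp and 0.94 for Rnu3b1. The median of this r was 0.87 over the 6 structural RNAs, 0.79 over the 12 members listed as hosts of small nucleolar RNAs and 0.33 over all 589 members. Of the 130 members that passed in the sagittal series 42 had an r over 0.85 with it, and of the 121 horizontal ones 0. The part of this shared movement in the sagittal calls was not tested.

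Other members named for the largest sagittal ranges were also higher in sagittal fraction 1 than in fraction 5. Their r with the ribosomal median was 0.68 for NR_033217, 0.92 for 2900052N01Rik, 0.76 for A430093F15Rik and 0.61 for 4933412O06Rik. NR_033217 was at 10.59 in sagittal fraction 1 and 6.65 in fraction 5, 2900052N01Rik at 3.72 and -0.02, A430093F15Rik at 0.33 and -3.63, and 4933412O06Rik at -0.48 and -3.62, all with an adjusted p of 0.00953. With array medians in place of the 75th percentile none of the 8 members named for the sagittal series passed (adjusted p 0.0634 to 0.105), nor did any without sagittal fraction 1. Rn28s1, the large ribosomal RNA, passed in the sagittal series too, with 7.75, 8.27 and 9.95 as its lowest, median and highest levels.

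Host genes of small nucleolar RNAs release these RNAs from their introns. The list of them held Snhg names with Dancr and Dleu2, and whether Dleu2 belongs there was not checked. It gave 12 members of 13 features, of which 6 passed in some series, 4 in the coronal, 0 in the horizontal and 5 in the sagittal one. Over all features 50.1 percent passed in some series, and 33.7, 15.8 and 14.7 percent in the coronal, horizontal and sagittal one. The share of this list was thus at the background in some series and in the coronal one, lower in the horizontal one and higher in the sagittal one. These differences were not tested. No feature passed in the sagittal series without fraction 1, and with array medians 4 of all 589 members did. Snhg6 had coronal lowest, median and highest levels of 3.27, 4.05 and 5.73 and sagittal ones of 3.65, 4.68 and 5.96, with the top in coronal fraction 10 and sagittal fraction 1. Snhg18 differed in shape from Snhg6. It lay between -0.45 and 0.56 in coronal fractions 8 and 10 and reached 1.50 and 1.86 in fractions 11 and 12 (adjusted p 0.000738). Snhg16, with the smallest range of the 12 (1.29 log2), still passed in the coronal and sagittal series, with adjusted p of 0.0319 and 0.0319.

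**Figure D4:**
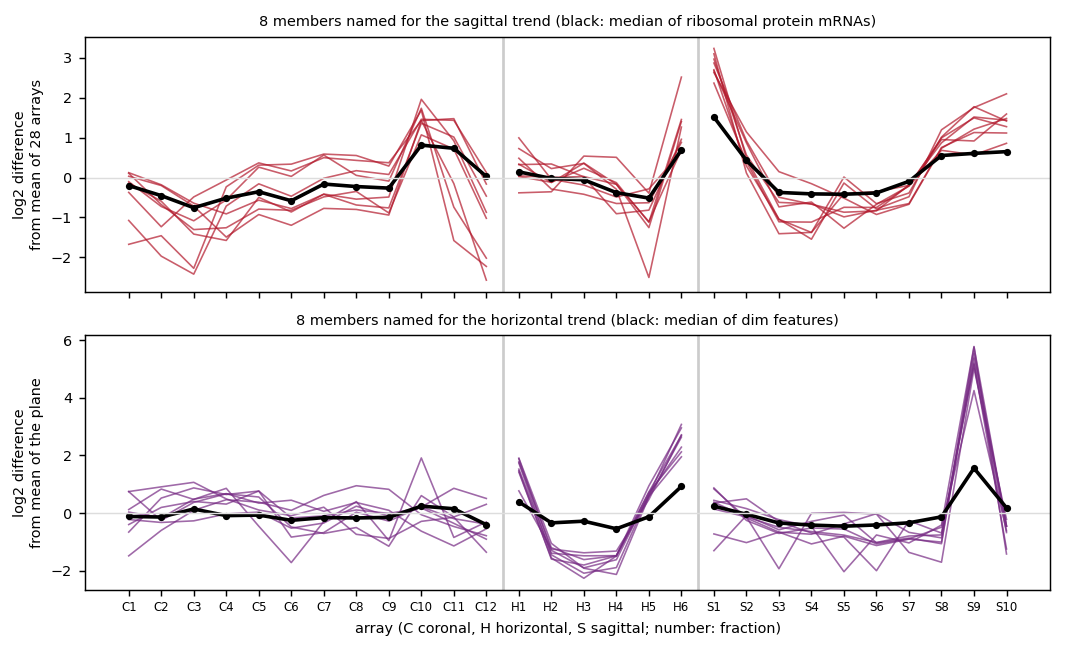
Difference of each log2 level from its mean (vertical axis; mean of the 28 arrays above, of each plane below) for every array (horizontal axis). The upper panel shows the 8 members named for the sagittal series (red) with the median of ribosomal protein messengers (black), which reaches 1.52 in sagittal fraction 1. The lower panel shows the 8 members named for the horizontal series (purple) with the median of dim features (black), which reaches 1.55 in sagittal fraction 9.

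The members with the largest horizontal ranges stood high in horizontal fractions 1, 5 and 6 and again in a single sagittal fraction. NR_033146 had horizontal levels of 8.05, 4.88, 4.27, 4.55, 6.82 and 8.45 in fractions 1 to 6 (adjusted p 0.0225). In the sagittal series it was at 9.33 in fraction 9, with the other 9 fractions between 2.83 and 4.79, and that series did not pass (0.585). Fbxl12os, opposite an F-box gene, went the same way, with 6.60, 3.21 and 6.77 in horizontal fractions 1, 3 and 6 and 8.38 in sagittal fraction 9, while its other feature did not pass (0.398). So did Fam219aos, 4933405E24Rik, A530072M11Rik, NR_015553, Redrum, an erythroid RNA, and 1600010M07Rik, whose levels in sagittal fraction 9 lay between 1.097 and 5.70. Terc, the RNA of telomerase, followed with -0.10, -2.48 and 0.33 in horizontal fractions 1, 3 and 6 and 1.54 in sagittal fraction 9 (horizontal adjusted p 0.0300).

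Horizontal fractions 1 and 6 and sagittal fraction 9 are also the arrays of these planes on which dim features as a class stood highest. The median of the 3787 features well above background on fewer than 14 arrays stood 1.55 log2 above its sagittal mean in sagittal fraction 9, 0.92 above its horizontal mean in horizontal fraction 6 and 0.39 in horizontal fraction 1, and the 92 dim members stood at 1.26 and 0.71 in the first 2 of these. With levels taken from the mean of each plane in the same way, r with that median over the 28 arrays was 0.91 for NR_033146 and 0.90 for Fbxl12os, and 26 of the 121 members that passed in the horizontal series had an r over 0.85 with it. Its part in these calls was not tested. All 8 calls were lost without horizontal fraction 3, without fraction 4 and with 1 degree of freedom fewer, and 5 of them without fraction 6. The coding features most like NR_033146 were H2-Q4 (r 0.99), a histocompatibility gene with near-identical copies, and Csf3r (r 0.98).

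Imprinted RNAs are read from the chromosome of a single parent. Of their 9 members 8 were tested and 4 passed in some series (50.1 percent over all features), 1 in the coronal (33.7 percent), 0 in the horizontal (15.8 percent) and 3 in the sagittal one (14.7 percent). Meg3, a maternally expressed RNA of the Dlk1-Dio3 cluster, had coronal lowest, median and highest levels of 0.95, 1.60 and 2.73. Its sagittal ones were 1.45, 2.24 and 2.97 (sagittal adjusted p 0.0360), while neither of its other 2 features passed. Peg13, paternally expressed in brain, was lowest in sagittal fraction 1 (4.44) and at 6.28 in fraction 5 (adjusted p 0.0483). Peg3os had sagittal levels of -5.74 in fraction 1 and -2.35 in fraction 5 (adjusted p 0.0396), and Airn, which silences Igf2r, was highest in coronal fraction 3 (-0.08) and lowest in fraction 8 (-2.38; adjusted p 0.0343). Kcnq1ot1 and Ipw passed in no series.

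Of 13 members for nuclear and chromosome RNAs 4 (30.8%) passed in some series (50.1 percent over all features), 3 in the coronal (33.7 percent), 0 in the horizontal (15.8 percent) and 3 in the sagittal one (14.7 percent). Malat1, the RNA of nuclear speckles, had coronal levels of -1.96 in fraction 4, 1.13 in fraction 10 and -0.60 in fraction 12 and sagittal levels of 1.38 in fraction 1 and -1.55 in fraction 6 (adjusted p 0.0201 and 0.0115). Its r with the ribosomal protein median was 0.92. Neat1, which builds paraspeckles, passed in no series (coronal lowest, median and highest levels -0.04, 0.64 and 1.80). Pvt1, beside Myc, was at -1.68 in coronal fraction 3, 0.75 in fraction 10 and -2.14 in fraction 12 (adjusted p 0.0107), but its other feature did not pass (0.0529). The 3 features of Tug1 did not pass in any series.

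MicroRNA hosts with Mir names gave 5 members, and all 5 passed in some series, where the percent over all features was 50.1. The array reads the host transcript and not the mature microRNA. The mature sequences carried inside 2 of these hosts are printed from RefSeq on GRCm38.p6 with the seed, bases 2 to 8, in capitals, and their seeds differ.

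mmu-miR-22-3p of Mir22hg, chr11:75463772-75463793, forward strand: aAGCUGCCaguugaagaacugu

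mmu-miR-9-5p of Mir9-3hg, chr7:79505279-79505301, forward strand: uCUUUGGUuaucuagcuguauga

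Mir22hg fell from 0.10 in horizontal fraction 1 to -1.13 in fraction 6 (adjusted p 0.0401), and in the sagittal series was highest in fraction 10 (0.17) and lowest in fraction 6 (-1.31; adjusted p 0.0135). Mir9-3hg, host of a microRNA of neural progenitors, had coronal lowest, median and highest levels of 0.86, 1.22 and 1.63, with the top in the rostral fractions 10 and 11 (adjusted p 0.0131). Mir124-2hg, host of a neuronal microRNA, passed in all 3 series and was lowest in coronal fraction 3 (-1.91) and highest there in fraction 11 (0.53). Mir99ahg passed in the horizontal series and Mir100hg in the coronal one (adjusted p 0.0286 and 0.0480).

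Evenness was measured as a size, since a p that misses the threshold does not show it. Of the 340 members on all 28 arrays 27 (7.94%) had a range under 1 log2 over the 28 arrays, where the percent over all 21524 features of the same detection was 11.6 and over coding features 13.7. The ranges just inside and just outside the limit belong to a continuous run of values, with 9 members less than 0.1 below it and 12 less than 0.1 above it. The even members were 14 long non-coding RNAs, 12 transcribed pseudogenes and 1 known by accession only. Pseudogenes were thus 44.4% of the even members and 25.9% of the 340.

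Pisd-ps1, a copy of the gene for phosphatidylserine decarboxylase, had the smallest range, 0.47 log2, with lowest, median and highest levels of 3.04, 3.38 and 3.46 in the coronal, 3.25, 3.36 and 3.51 in the horizontal and 3.06, 3.34 and 3.48 in the sagittal fractions. Gm9079 followed with 0.54, and its second feature was even too, with a range of 0.71. Trmt61b, named for a tRNA methyltransferase gene, had 0.57, 1700028J19Rik 0.64, Gm8801 0.69, NR_024619 0.70, Hmgb1-rs17, a copy of the chromatin protein gene Hmgb1, 0.70, and Gm6524 0.71. With quantile normalization 1700028J19Rik and Hmgb1-rs17 passed the limit of 1, with ranges of 1.45 and 1.13, and the other 6 stayed under it. With array medians every one of them passed the limit, with ranges from 1.50 (Hmgb1-rs17) to 2.08 (Gm8801).

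Among even members of high signal, Norad, the RNA that binds Pumilio proteins and guards chromosome stability, had lowest, median and highest levels of 5.12, 5.48 and 5.73 in the coronal, 5.17, 5.67 and 5.91 in the horizontal and 5.20, 5.54 and 5.83 in the sagittal fractions. Its range was 0.80 log2 for this feature and 1.15 to 1.65 for its other 3. 1500011B03Rik was even (0.77; 1.06 with normexp) yet passed the coronal test (adjusted p 0.0336), with levels from 3.53 in fraction 12 to 4.24 in fraction 8, so an even RNA can have a small trend. Its other feature had a range of 2.39 and an r of -0.21 with it. Gm6981 was even in 1 feature (0.97; 1.27 with quantile normalization and 1.17 with normexp) of 5, and another feature of it ran against the rest, with an r down to -0.69. Evenness hangs on the scale. With array medians, which lay -4.14 to -2.53 log2 from the 75th percentile and were highest in sagittal fraction 9, 3 members were even. The even features of Norad, 1500011B03Rik and Gm6981 then had ranges of 2.02, 2.17 and 2.16, past the limit. With the 75th percentile but without sagittal fraction 1, 41 members were even. The percent of all features that were even is given for the main setting only, so these counts are not set against a background.

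**Figure D5:**
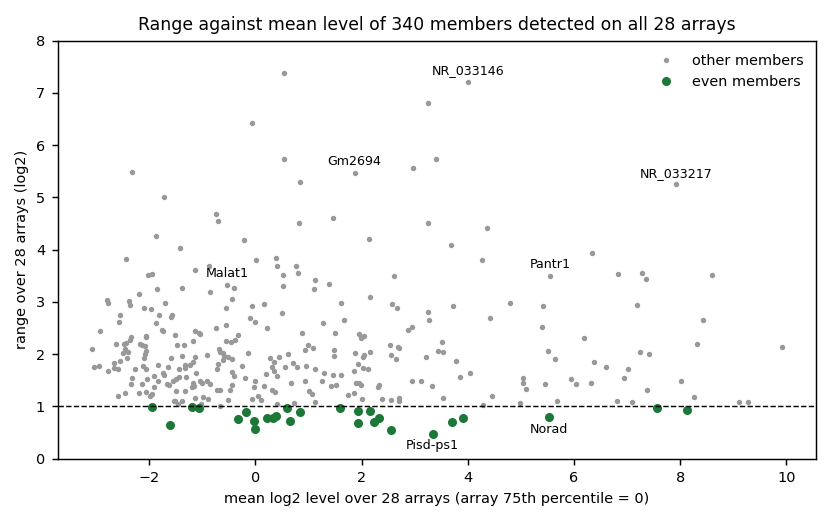
Range over 28 arrays (vertical axis, log2) against mean log2 level (horizontal axis, relative to the 75th percentile of the array) of the 340 members well above background on all 28 arrays. The 27 even members (green) lie under the dashed line at 1 log2, at low and high mean levels alike, and 4933405E24Rik has the widest range, 7.38.

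How far a profile belongs to the RNA can be read from genes with several features. Over 87 pairs of member features in 53 genes the median r over 28 arrays was 0.67, and 0.77 for the 67 pairs with both features on all 28 arrays. For coding genes it was 0.63 and 0.72. The pairs ran from -0.69 in Gm6981 to 1.00, and 1500009C09Rik (r 1.00) was among the closest.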

How the data were processed

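RNA of each of the 28 fractions was labelled with Cy3 and read on 1 one-colour Agilent mouse array. Per the file headers, the deposited scanner files hold processed signal intensities, background-subtracted spot by spot by Agilent Feature Extraction 10.5.1.1, with a flag for a spot well above background. The authors also deposited log2 values normalized per array, in which each array's 75th percentile has been subtracted from the log2 signals, as a comparison with the scanner files showed to within 0.00758. That scale was computed here from the intensities, after control spots and outlier spots were left out and spots of a feature were averaged. Signal over background and the number of arrays limit the precision.

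In R 4.3.3, limma 3.58.1 fitted a natural spline of the fraction number in each plane (3, 2 and 3 degrees of freedom), with Benjamini-Hochberg adjustment over the 32364 features detected in all 3 planes without a lost spot. The spread is the scatter of fractions around the curve, which may be technical, since no position has a second animal. The mirror test was a one-way limma F-test. The fits were checked on simulated data. Slides hold coronal fractions 1 and 2 with all horizontal ones, coronal 3 to 10, coronal 11 and 12 with sagittal 5 to 10, and sagittal 1 to 4.

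Several features of a gene are represented by the brightest. Named were, per series, the 8 genes with the largest fitted range among members called and well above background in every fraction of it, the 8 with the smallest range over all arrays with the 3 brightest even ones, and members of the lists. A fold is called "at least" where the low side is not well above background, and is then taken against the dimmest signal well above background on that array. Names come from the GRCm38.p6 table, which matched 536 members. Some neighbouring pairs are not reported here. The members and lists were chosen with earlier results of these data known. Alternatives were another scaling, background correction, filter or curve, the slide, and each fraction left out.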

Additional observations from a re-analysis of the deposited data

Results flagged for a closer look

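For 47 named members, the highest and lowest horizontal and sagittal fractions were compared with the spread of the other fractions of the series. By Dixon's criterion, over 94 series of values, 14 stood apart. The criterion marks about 1 in 20 series of independent values. That rate does not hold here, since the members were named from these same data and levels change with position. The 14 are therefore given as a description. Of these, 10 were a level in sagittal fraction 9 above the other 9 sagittal fractions. They were NR_033146 at 9.33, Fbxl12os at 8.38, E330020D12Rik at 6.18, 4933405E24Rik at 5.70, Hmgb1-rs17 at 4.12, Fam219aos at 2.13, A530072M11Rik at 1.93, 1600010M07Rik at 1.30, NR_015553 at 1.13 and Redrum at 1.097. On that array the median of dim features stood 1.55 log2 above its sagittal mean, and its part in these levels was not tested. In horizontal fraction 6, Snora47 stood above the other fractions at 3.35, and Gm6981 and Gm8801 stood below them at 7.07 and 1.58. In sagittal fraction 1, Six3os1 stood below the others at -5.13. With 1 array per fraction, array and position cannot be told apart.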

How the results depend on the processing

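No paired analysis was possible because fractions of different planes share only a number and come from different mice. In brackets below, a percent of the members tested stands against that of all features under the same setting. The coronal count of 214 of 589 members (36.3%, against 33.7%) was 8 with the slide as an added term (1.36%, against 0.745%). It was 97 within the fractions of a single slide (16.5%, against 12.9%). Among features well above background in every coronal fraction it was 165 of 369 (44.7%, against 45.2%). Under the other settings it stayed between 190 (32.3%, against 31.2%) and 247 (41.9%, against 39.3%). Leaving out a coronal fraction gave 159 to 217. The horizontal count of 121 (20.5%, against 15.8%) was 276 with array medians (46.9%, against 59.8%). It was 201 with normexp background (34.1%, against 28.0%) and 1 with 1 degree of freedom fewer (0.170%, against 0.00309%). With a fraction left out it was 0 to 125 (21.2%, against 17.8%). The sagittal count of 130 (22.1%, against 14.7%) was 4 with array medians (0.679%, against 1.04%). It was 73 with quantile normalization (12.4%, against 8.12%) and 328 with normexp (55.7%, against 44.2%). With the slide term it was 76 (12.9%, against 7.79%), and within a single slide 0, as for all features. With a fraction left out it was 0 to 316 (53.7%, against 47.1%). The mirror count of 0 was 21 with array medians (3.57%, against 3.46%). Among features well above background in every sagittal fraction it was 9 of 368 (2.45%, against 1.54%). With a fraction left out it was 0 to 121, the last without sagittal fraction 2 (20.5%, against 16.2%). The 27 even members were 3 with array medians, 59 with normexp and 41 with the range taken within each series, and 27 to 41 with a fraction left out. These even counts are given without the percent over all features under the same setting. With the deposited log2 values the counts were 214, 121, 129, 0 and 27. Of all features 33.7%, 15.8% and 14.6% passed the trend tests with these values, and 0% the mirror test. Of 781 adjusted p of named members under an alternative, 645 stayed under 0.05 and 136 did not. The causes were not tested. Signal near background limits the profiles of dim members, whose low side is only a bound.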
